A study of Arabidopsis thaliana with 28 samples.

Results

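The comparison was between whole Arabidopsis thaliana seedlings of a pif7 mutant and of the wild type Col-0, sampled in the cool hours of a day whose middle was warm. Every library labelled for the oscillating temperature regime and collected at ZT0, ZT4, ZT16 or ZT20 was taken, with ZT counting the hours from lights on. That gave 8 of the 28 libraries of the series, 4 of each genotype, paired by time. Seedlings were 7 days old, and both genotypes grew on MS plates under long days of 16 h light and 8 h dark. In the oscillating regime the temperature was 27 °C between ZT4 and ZT12 and 17 °C at all other hours. The labels give 27 °C for all of its libraries, so the cool hours were assigned from the growth protocol. ZT4 lies at the edge of the warm period, and the sources used here do not say whether the seedlings were taken before or after the temperature rose. A second set of 8 libraries, both genotypes at the same 4 times under constant 17 °C, and the 6 oscillating libraries from the warm hours (ZT5, ZT8 and ZT12) were set beside them. They also entered the fit from which the spread between pairs was estimated. The pif7 allele is not named in the labels, and each genotype, regime and time has 1 library of pooled seedling tissue. There are no replicates, so a p-value measures how constant a difference was across times of day, not the spread between pools of seedlings.

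PIF7 belongs to the phytochrome-interacting factors, basic helix-loop-helix proteins that bind DNA. In shade, low activity of the photoreceptor phytochrome B lets PIF7 bind G-box and related DNA elements and raise auxin synthesis genes, and with them the elongation of hypocotyls and petioles. The same factor acts in the elongation of seedlings under a warm daytime. Its known targets in seedlings include HFR1 and PIL1, helix-loop-helix proteins that feed back on the response, and genes of auxin response and cell wall loosening.

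The depth of the 8 libraries was 1.32 to 2.63 gigabases, with 1.32 to 2.41 in Col-0 and 2.00 to 2.63 in pif7. The shallowest library was Col-0 at ZT0. Over all genes, each pif7 library correlated most closely with the Col-0 library of its own time, at Spearman 0.983 to 0.99, against at most 0.978 for any other time. Of 33602 genes in the files, 21031 passed the filter on low values. The 18 tested genes of the heat shock list were also compared between regimes. Their median log2 difference, oscillating minus constant, was 0.30 at ZT0, 0.55 at ZT4, 0.47 at ZT16 and 0.20 at ZT20 in Col-0. In pif7 it was 0.23, 0.39, 0.54 and -0.02. In each genotype 4 of the 18 were above 1 at ZT4 and at ZT16, 0 at ZT0 and 1 at ZT20. These values rest on single libraries and were not tested. The same medians and shares over all genes were not computed, so no shift of this list is read from them.

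Few genes differed between the genotypes steadily over the cool hours. In limma's fit with Benjamini-Hochberg adjustment, 18 of 21031 genes passed an adjusted p of 0.05, which is 0.0856% of those tested. The 14 that were lower in pif7 (0.0666%) included PIF7 itself, the shade regulator HFR1, the xyloglucan-modifying enzyme XTH4, the expansin-like protein EXLB1 and the chloroplast movement gene WEB1. The 4 that were higher (0.019%) were MRD1, QQS, HEI10 and a pseudogene. The annotation counts 14 of the 18 as protein-coding and 3 as pseudogenes, and the other one as a non-coding RNA. All 18 had the same sign at all 4 times. They were spread over the 5 chromosomes, with 3 to 5 on each. The total fell to 9 when ZT16 was left out and to 7 when only the 8 libraries were fitted. The 14 lower genes became 7 without ZT0 and 5 without ZT16. All genes tested had a median log2 difference of 0.0053, with 52% above 0.

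The fitted differences of all 18 genes kept their sign in the constant 17 °C libraries and in the warm-hour libraries. For 6 of them, named below, the constant-regime difference was near 0, so its sign says little. The share of all genes that kept their sign was not computed. After scaling, the cool-hour differences themselves came from the 8 cool-hour libraries, but their standard errors and calls shared the spread of all 28, so the sets are not fully independent. Fitted without the others, the 8 libraries gave the 7 calls above, which were MRD1, QQS, HEI10, WEB1, AT2G05995, AT4G03990 and SADHU3-2. The 6 genes with a constant-regime difference near 0 did not pass in that fit, at adjusted p of 0.0623 to 0.3 (limma). In the constant regime 10 of the 18 also passed the test, where 0.0523% of all genes passed. In the warm hours 13 of the 18 passed, against 0.119% of all genes. The constant-regime log2 difference lay within 0.3 of 0 for 6 genes, which were AT5G44440, HFR1, AT1G52190, EXLB1, KNAT1 and XTH4. The plot of the 18 differences in the sets of libraries shows these 6 near 0 in the constant regime.

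**Figure D1:**
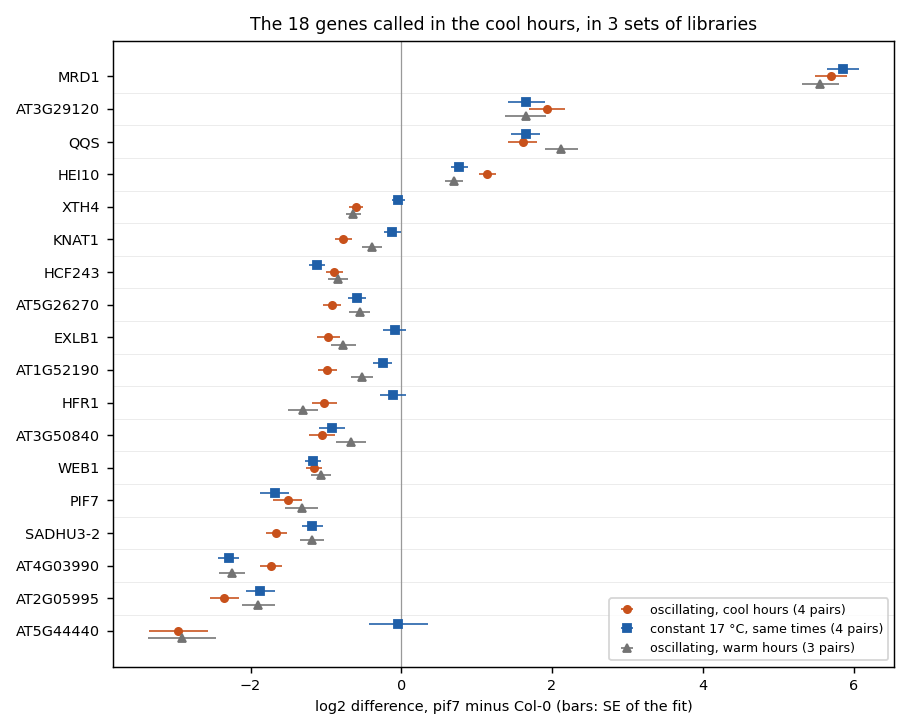
Log2 differences, pif7 minus Col-0, of the 18 genes that passed the test in the cool hours, with the SE of the fit as bars, for the oscillating cool hours, the constant regime at the same times and the oscillating warm hours. MRD1 stands apart at 5.70, and 6 genes lie within 0.3 of 0 in the constant regime only.

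PIF7 (AT5G61270, TAIR10 chromosome 5, 24638773 to 24640600, minus strand) checked the genotype labels. In Col-0 it was at 9.59 TPM at ZT0, 37.4 at ZT4, 16.6 at ZT16 and 8.42 at ZT20. In pif7 it was at 1.91, 7.41, 8.20 and 3.53 TPM at the same times. All 4 mutant values lay below all 4 wild-type values, as was the case for 0.328% of all genes. The mutant kept 19.9% of the Col-0 level at ZT0 and 19.8% at ZT4, and 49.4% at ZT16 and 42% at ZT20. Each share rests on 1 library of each genotype. In the constant regime the order was reversed, with log2 differences of -1.27 at ZT0, -1.47 at ZT4, -1.93 at ZT16 and -2.05 at ZT20. Over the 4 cool hours PIF7 was lower by a log2 difference of -1.51 ± 0.19 (SE of the fit, adjusted p = 0.00291, limma, 4 pairs). The exact paired permutation test over 4 pairs gave a two-sided p of 0.125, the smallest that this design allows. With only the 8 libraries in the fit the adjusted p was 0.103. In whole seedlings, fewer cells of a type and less RNA per cell cannot be told apart. Among the 48 tested genes within 100 kb of PIF7 none passed the test, against 0.0856% of all genes. Their log2 differences ran from -0.25 to 0.36.

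Of the protein-coding genes other than PIF7, 4 were lower in the cool hours with constant-regime differences further from 0. WEB1 (AT2G26570, chromosome 2, 11299144 to 11302191, plus strand), needed for the movement of chloroplasts in response to light, was at 30.2, 33.3, 34.1 and 30.8 TPM in Col-0 at ZT0, ZT4, ZT16 and ZT20, and at 14.5, 11, 15.3 and 15.4 TPM in pif7. Both genotypes held a nearly flat level over these hours, and the groups did not overlap. The log2 difference was -1.16 ± 0.11 (adjusted p = 0.000138, limma), and -1.17 in the constant regime. HCF243 (AT3G15095, chromosome 3, 5081780 to 5084240, plus strand), which acts in the stability of the photosystem II protein D1, was at 27.8, 27.2, 48.4 and 32.7 TPM in Col-0 and at 15.8, 11.3, 24 and 21.8 in pif7. Its groups did not overlap either, and its log2 difference was -0.89 ± 0.11 (adjusted p = 0.00313), with -1.12 in the constant regime. The NPH3-family gene AT3G50840 and the uncharacterised protein gene AT5G26270 were lower by -1.05 ± 0.17 (adjusted p = 0.0255) and -0.92 ± 0.12 (adjusted p = 0.00313). Their constant-regime values were -0.92 and -0.59, which did not pass the test. WEB1 kept its call when each time was left out in turn. HCF243 lost it without ZT16 (adjusted p = 0.0717). AT5G26270 lost it without ZT0 or ZT16, and AT3G50840 without ZT0, ZT4 or ZT16, with adjusted p of 0.0799 to 0.23.

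A non-coding RNA and 2 pseudogenes or transposon-derived loci were lower in both regimes. AT2G05995, a non-coding RNA gene on chromosome 2 (2325776 to 2326876, plus strand), was at 5.36, 7.26, 12.2 and 3.6 TPM in Col-0 and at 0.132, 0.609, 0.674 and 0.397 TPM in pif7. Its log2 difference was -2.35 ± 0.19 (adjusted p = 3.73e-05, limma), and -1.87 in the constant regime. SADHU3-2 (AT3G42658, chromosome 3, 14749400 to 14750294, minus strand), a member of a family of non-coding retrotransposons, was at 10.8, 7.08, 7.19 and 10.1 TPM in Col-0 and at 3.76, 1.89, 1.22 and 1.73 in pif7. Neither locus had overlapping groups, and SADHU3-2 was lower by -1.66 ± 0.14 (adjusted p = 3.73e-05). The pseudogene AT4G03990 (chromosome 4, 1916461 to 1917816, minus strand) was at 3, 2.19, 2.34 and 2.3 TPM in Col-0 and was listed at 0 in all 4 pif7 libraries. It was also listed at 0 in pif7 at these times in the constant regime, where Col-0 had 2.42 to 5.32 TPM, so no fold is given. All 3 kept their calls when each time was left out.

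MRD1 showed the largest difference of all genes tested. MRD1 (AT1G53480, chromosome 1, 19963047 to 19964712, minus strand), named for its lowered transcript in the methionine over-accumulating mutant mto1, was at 0.514, 0.364, 0.180 and 0.299 TPM in Col-0. In pif7 it was at 91.1, 54.6, 57.9 and 90.8 TPM at ZT0, ZT4, ZT16 and ZT20. The gene was near the limit of detection in every Col-0 library and well expressed in every pif7 library, in the constant regime too, where Col-0 had at most 0.270 TPM and pif7 44.5 to 83.0. The log2 difference was 5.70 ± 0.21 (adjusted p = 1.25e-09, limma), a fold of 51.8 on the scale with the added pseudocount of 1, which understates changes from low levels. It stayed between 3.77 and 7.37 under every alternative that was run, with its lowest value at the larger pseudocount.

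HEI10 (AT1G53490, chromosome 1, 19963267 to 19966952, plus strand), a RING protein of meiotic crossover formation, overlaps MRD1 by 1446 bases on the opposite strand. It was at 0.999, 0.629, 0.896 and 1.01 TPM in Col-0 and at 3.28, 2.54, 3.06 and 4.17 TPM in pif7. The groups were separate, with a log2 difference of 1.14 ± 0.11 (adjusted p = 0.000116, limma). The library kit keeps strand, per the labels, but the sources used here do not state whether the quantification used it, so reads from MRD1 cannot be told apart from HEI10 reads. QQS (AT3G30720, chromosome 3, 12349047 to 12349832, plus strand), an orphan gene that affects starch and protein content, was at 3.59, 0.927, 3.06 and 3.69 TPM in Col-0 and at 13.8, 4.70, 13.6 and 11.7 TPM in pif7. Both genotypes had their lowest value at ZT4, and the log2 difference was 1.61 ± 0.19 (adjusted p = 0.00128), against 1.65 in the constant regime. The pseudogene AT3G29120 (chromosome 3, 11098505 to 11099198, plus strand) was at 0.748 to 4.17 TPM in Col-0 and 7.43 to 15.6 TPM in pif7, a log2 difference of 1.93 ± 0.24 (adjusted p = 0.00235). Like MRD1, these 3 genes had all pif7 libraries above all Col-0 libraries, which held for 0.442% of all genes, and they kept their calls when each time was left out.

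**Figure D2:**
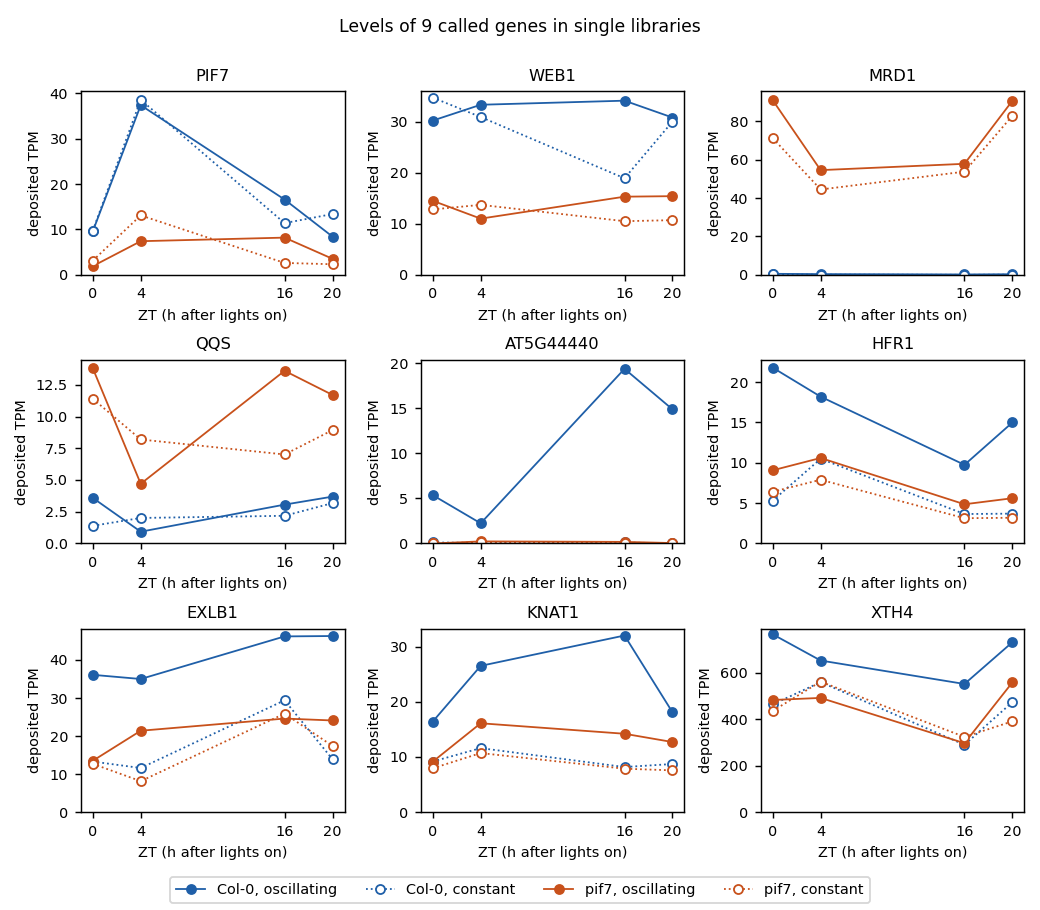
Deposited TPM of 9 of the 18 genes at ZT0, ZT4, ZT16 and ZT20, with 1 point per library, filled points and solid lines for the oscillating regime and open points and dotted lines for constant 17 °C. PIF7, WEB1, MRD1 and QQS keep the genotypes apart in both regimes, while AT5G44440, HFR1, EXLB1, KNAT1 and XTH4 have the oscillating Col-0 library above the other libraries of the same time.

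The 6 genes with a constant-regime difference near 0 had different known roles, and 2 of them, HFR1 and XTH4, were members of the lists of growth genes. AT5G44440 (chromosome 5, 17910557 to 17912312, minus strand), a gene of the FAD-binding berberine bridge enzyme-like family, was at 5.37, 2.24, 19.4 and 14.9 TPM in Col-0 at ZT0, ZT4, ZT16 and ZT20. In pif7 it was listed at 0 at ZT0 and was at 0.230, 0.175 and 0.0465 TPM at the other times. Constant-regime libraries had at most 0.115 TPM in Col-0 and 0.128 TPM in pif7, so at these hours the transcript was above 1 TPM in oscillating Col-0 seedlings only. The warm-hour libraries had 1.87 to 19.4 TPM in Col-0 and 0.114 to 0.212 TPM in pif7. The log2 difference was -2.96 ± 0.39 in the cool hours (adjusted p = 0.00338, limma) and -0.04 in the constant regime. The call was lost without ZT16 (adjusted p = 0.0896) or ZT20 (0.0775).

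HFR1 (AT1G02340, chromosome 1, 465718 to 467844, minus strand), an atypical helix-loop-helix protein that binds PIFs and limits their activity, was at 21.8, 18.2, 9.75 and 15 TPM in Col-0. In pif7 it was at 9.07, 10.6, 4.86 and 5.61 TPM. The mutant value was the lower one at every time, although the groups overlap, since Col-0 at ZT16 lay below pif7 at ZT4. Constant-regime levels were 3.65 to 10.5 TPM in Col-0 and 3.13 to 7.90 TPM in pif7, and warm-hour levels 26 to 54.5 and 10.4 to 22 TPM. The log2 difference was -1.02 ± 0.17 (adjusted p = 0.0351, limma), with -0.11 in the constant regime. It kept its direction but lost the call when any of the 4 times was left out, at adjusted p of 0.0666 without ZT4 up to 0.295 without ZT20. The call was also lost at a pseudocount of 0.1, with no filter and with only the 8 libraries, which makes 7 of 12 alternatives.

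XTH4 (AT2G06850, chromosome 2, 2763526 to 2765720, plus strand), a xyloglucan endotransglucosylase/hydrolase that cuts and rejoins wall xyloglucan, was at 766, 653, 552 and 732 TPM in Col-0 and at 483, 492, 297 and 559 TPM in pif7. Its constant-regime range was 290 to 560 TPM in Col-0 and 324 to 562 TPM in pif7. EXLB1 (AT4G17030, chromosome 4, 9581586 to 9583290, minus strand), an expansin-like protein, was at 36.1, 35.0, 46.2 and 46.3 TPM in Col-0 and at 13.5, 21.4, 24.6 and 24.1 TPM in pif7. The EXLB1 groups did not overlap, whereas those of XTH4 met at pif7 ZT20 and Col-0 ZT16. The log2 difference was -0.97 ± 0.15 for EXLB1 (adjusted p = 0.0141, limma) and -0.60 ± 0.09 for XTH4 (adjusted p = 0.0127). XTH4 lost its call without ZT0 (adjusted p = 0.169) or ZT16 (0.214), and EXLB1 without ZT0 (0.176), ZT16 (0.0941) or ZT20 (0.0589).

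KNAT1 (AT4G08150, chromosome 4, 5147700 to 5150966, minus strand), a homeobox protein of the shoot meristem and stem, was at 16.4, 26.5, 32 and 18.1 TPM in Col-0 and at 9.14, 16.1, 14.2 and 12.7 TPM in pif7. The 4 mutant values lay below the 4 wild-type values, and the log2 difference was -0.77 ± 0.11 (adjusted p = 0.00876, limma). In the constant regime KNAT1 was at 8.17 to 11.6 TPM in Col-0 and 7.57 to 10.7 TPM in pif7. AT1G52190 (chromosome 1, 19434509 to 19438971, plus strand), annotated as a major facilitator superfamily transporter, was at 57.1, 22.5, 42.4 and 83.2 TPM in Col-0 and at 23.2, 13.6, 16.5 and 53.5 TPM in pif7. It was lower at each time with overlapping groups, by -0.98 ± 0.13 (adjusted p = 0.00385). KNAT1 lost its call without ZT0 (adjusted p = 0.136), ZT4 (0.0558) or ZT16 (0.182), and AT1G52190 without ZT0 (0.0842) or ZT16 (0.0896).

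Whether the genotype difference itself differed between regimes was tested over all genes. No gene passed in limma's fit, and 431 of 21031 (2.05%) had an unadjusted p under 0.05. The difference of differences, cool hours minus constant regime, was -2.92 ± 0.55 for AT5G44440 (unadjusted p = 9.68e-05, adjusted p = 1). For HFR1 it was -0.91 ± 0.24, for EXLB1 -0.87 ± 0.21, for AT1G52190 -0.73 ± 0.19, for KNAT1 -0.65 ± 0.16 and for XTH4 -0.56 ± 0.13, all at an adjusted p of 1. The 6 genes were picked by a call in the cool hours and by a constant-regime difference within 0.3 of 0. Both differences enter this test, so these sizes largely follow from the choice and are a description. Other genes with small unadjusted p were AT1G52330, called in the constant regime (0.73) and at -0.13 in the cool hours, and ACA2, a calcium pump gene, at 0.76 in the cool hours and -0.28 in the constant regime.

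PIFs bind the G-box and a related hexamer, the PBE-box, so the 1000 bases before each gene's start in the files were searched. The G-box was read as CACGTG, which is its own reverse complement, and the PBE-box as CACATG on both strands, so that matches on opposite strands can overlap each other. One of the 18 genes, 5.56%, held a G-box and 7, or 38.9%, a PBE-box. Genes with a PBE-box were HEI10, AT3G29120 and MRD1, all the higher genes but QQS, and PIF7, HFR1, HCF243 and KNAT1 among the lower genes. Among all 20834 tested genes with a full window the shares were 17.7% and 37.6%. A few windows are printed because they belong to genes that were lower in pif7 and have at least 1 of the motifs, with the motif in capitals. They were read 5′ to 3′ on the gene's strand from RefSeq's TAIR10.1 genome, and no RefSeq gene overlaps them. A match is a description of the sequence and shows no binding. The HFR1 window (chr1:468258-468323, minus strand, motif 449 bases upstream), the KNAT1 window (chr4:5151485-5151550, minus strand, 554 bases upstream) and the HCF243 window (chr3:5080780-5080843, plus strand, 972 bases upstream) read as follows.
HFR1, PBE-box: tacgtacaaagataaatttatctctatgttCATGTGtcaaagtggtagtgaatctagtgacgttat
KNAT1, PBE-box: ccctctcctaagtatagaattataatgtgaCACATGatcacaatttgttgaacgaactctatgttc
HCF243, G-box: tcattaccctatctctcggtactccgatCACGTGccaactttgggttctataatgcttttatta

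Lists of genes known for elongation growth leaned to lower values in pif7, with few members past the test. The lists of shade and PIF-associated regulators, auxin synthesis, auxin response and transport, cell wall loosening, and gibberellin and brassinosteroid metabolism together held 77 tested genes. Of these 2 were called lower (HFR1 and XTH4) and 0 higher, or 2.6% called against 0.0856% of all genes. In these lists 62 of 77 had a log2 difference below 0, with a median of -0.14, against 48% below 0 over all genes. The same genes had a median of -0.04 in the constant regime and -0.47 in the warm hours. The lists were drawn up with results of these data known, so they are described and not tested.

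The lean of the growth lists varied with the hour. At ZT0, 57 of the 77 genes were lower in pif7, with a median log2 difference of -0.29. At ZT16 there were 53, with a median of -0.17, and at ZT20 there were 62, with a median of -0.24. At ZT4, at the edge of the warm period, only 31 were lower and the median was 0.11. The change of sign was widest in the auxin response and transport list, whose 24 members had medians of -0.48 at ZT0, 0.34 at ZT4, -0.31 at ZT16 and -0.27 at ZT20. Without ZT4 the median of the 77 genes was -0.23 and 2 of them were called, EXPA8 and XTH4. These medians at single times rest on 1 library of each genotype. In the constant regime the auxin response and transport list also swung between hours, from a median of 0.12 at ZT0 to -0.43 at ZT16. Swings in the oscillating regime were not particular to growth lists. The cold response list went from a median of -0.38 at ZT0 to 0.28 at ZT4, and the flavonoid and anthocyanin list from 0.19 to -0.20.

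**Figure D3:**
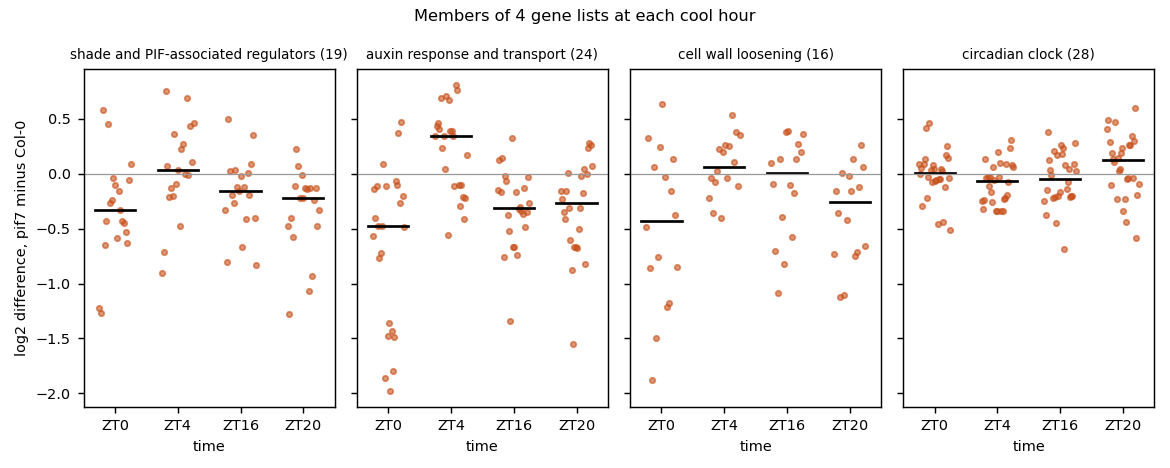
Log2 differences, pif7 minus Col-0, of the tested members of 4 gene lists at each cool hour of the oscillating regime, 1 point per gene, with the list median as a black bar. The auxin response and transport list is at -0.48 at ZT0 and 0.34 at ZT4, while the medians of the circadian clock list stay closer to 0.

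IAA29, an Aux/IAA repressor induced by PIFs, was the auxin gene with the largest difference. It was at 5.78, 5.32, 5.81 and 7.46 TPM in Col-0 at ZT0, ZT4, ZT16 and ZT20, and at 0.933, 3.27, 1.54 and 1.84 TPM in pif7. The groups did not overlap. The fitted log2 difference of -1.33 ± 0.32 did not pass the test (adjusted p = 0.228, limma), with values at single times from -1.86 at ZT0 to -0.56 at ZT4. It was -3 in the warm hours and -0.18 in the constant regime. The auxin synthesis enzyme YUC8 had -0.32 in the cool hours and -1.38 in the warm hours, and SAUR19 and SAUR22, small auxin-induced growth genes, had -0.61 ± 0.25 and -0.65 ± 0.29 in the cool hours, none of them past the test in the cool hours.

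Among expansins, EXPA8 was at 51.8, 69.0, 27.1 and 31.1 TPM in Col-0 and at 14.3, 64.6, 11.4 and 14 TPM in pif7. The genotypes lay far apart at ZT0, ZT16 and ZT20 and close together at ZT4, with single-time log2 differences of -1.88, -1.09, -1.12 and -0.08. Over all 4 times its log2 difference was -1.04 ± 0.22 (adjusted p = 0.132, limma), and without ZT4 it was -1.36 (adjusted p = 0.0285). EXPA11 had the same order, with -1.50 at ZT0, 0.22 at ZT4, -0.39 at ZT16 and -1.1 at ZT20. In the constant regime EXPA8 was at 0.13 and EXPA11 at 0.06. The other expansins of the cell wall loosening list went both ways over the 4 cool hours. EXPA5 was at -0.57 and EXPA1 at -0.33, while EXPA4 was at 0.01 and EXPA10 at 0.06. PIL1, the shade-induced relative of HFR1, was at 1.82, 2.04, 1.51 and 1.82 TPM in Col-0 and at 0.222, 0.639, 0.924 and 1.02 TPM in pif7. Its groups did not overlap, and its log2 difference of -0.73 ± 0.17 did not pass (adjusted p = 0.18). HB-2, a shade-induced homeodomain protein, had -0.24 ± 0.14.

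The other 6 genes of the PIF family did not pass the test, which 0.0856% of all genes passed. Their log2 differences were -0.16 for PIL5 (PIF1), -0.02 for PIF3, 0.19 for PIF4, 0.14 for PIL6 (PIF5), -0.05 for PIL2 (PIF6) and -0.17 for UNE10. PIF4, which drives growth in warmth, ran from 0.515 TPM at ZT0 to 43.9 TPM at ZT4 in Col-0 and from 1.27 TPM at ZT20 to 39.5 TPM at ZT4 in pif7. Its daily course was much wider than the gap between the genotypes.

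No member of the 28-gene circadian clock list was called, and its median log2 difference was -0.01. Over all genes 0.0856% were called, so the absence of calls in lists of such sizes says little. LHY, a morning clock factor, was at 387, 242, 1.74 and 19.2 TPM in Col-0 and at 415, 191, 1.02 and 28.1 TPM in pif7, so both genotypes fell steeply from dawn to evening. GI, which links the clock to flowering, had -0.28 ± 0.13, the largest difference of the list. Photoperiod and flowering genes (10 tested) and photoreceptor and light signalling genes (18 tested) had 0 called and medians of 0.08 and -0.02. FT, the mobile flowering signal, was at 2.15, 1.1, 3.17 and 2.76 TPM in Col-0 and 0.595, 0.554, 3.01 and 2.56 TPM in pif7, lower in pif7 at ZT0 and ZT4 and close at ZT16 and ZT20 (-0.39 ± 0.18, adjusted p = 1, limma).

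Temperature markers gave no call either, beside 0.0856% called over all genes. The cold response list (16 tested) had a median of -0.07, with CBF1, CBF2 and DREB1A, the factors that switch on cold-regulated genes, at -0.08, 0.29 and 0.00. COR15A, a chloroplast cryoprotectant and a CBF target, was at 196, 94.4, 557 and 368 TPM in Col-0 and at 84.4, 137, 229 and 386 TPM in pif7. Its difference changed sign between hours, and the fitted -0.48 ± 0.46 did not pass. The heat shock list (18 tested) had a median of -0.02, with HSP17.4 at -0.51 ± 0.17 as its member furthest from 0.

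Flavonoid, jasmonate, salicylic acid and abscisic acid lists had 0 called among 20, 17, 11 and 13 tested genes, with medians of 0.04, 0.03, 0.03 and 0.05. The share called over all genes was 0.0856%, so lists of these sizes without a call say little. Dark and sugar starvation genes (8 tested) had 0 called and a median of 0.02. The light-harvesting antenna list had 15 of 18 members above 0, a median of 0.12 and 0 called. Its LHB1B1, a protein of the major photosystem II antenna, was at 429 TPM in Col-0 and 1040 TPM in pif7 at ZT20, while the other times differed by 0.01 to 0.32 on the log2 scale. Another antenna gene, LHCB2.3, had 0.41 ± 0.10 (adjusted p = 0.206, limma).

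**Figure D4:**
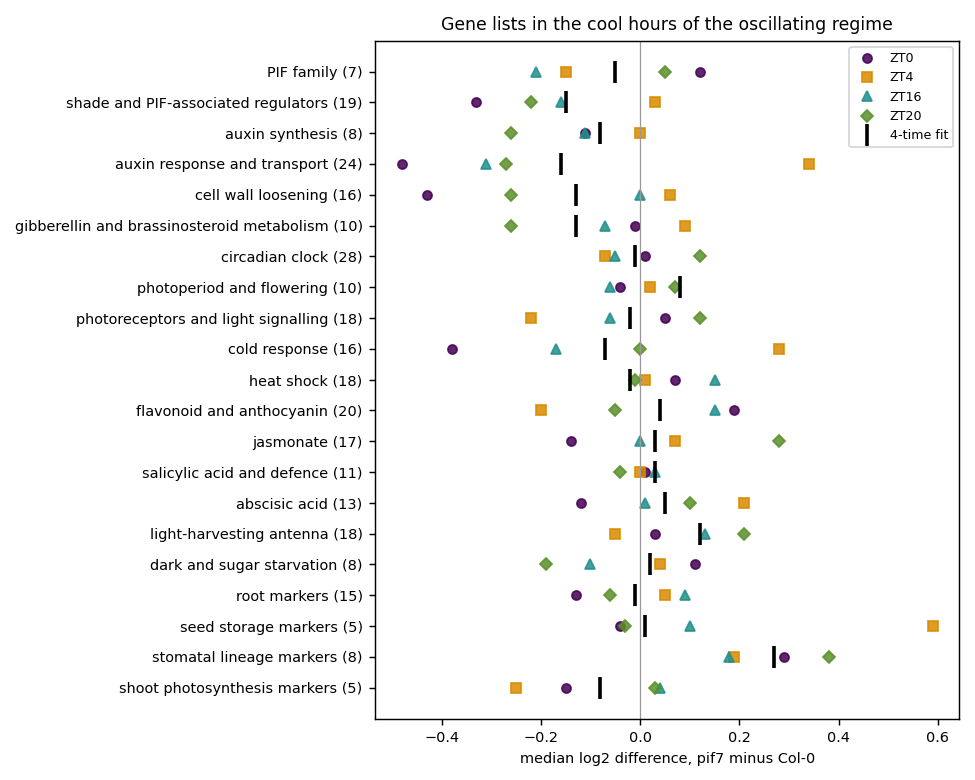
Median log2 difference, pif7 minus Col-0, of each gene list in the cool hours, at single times (symbols) and in the fit over 4 times (black bars), with the number of tested members in brackets. The auxin response and transport list and the seed storage markers have their ZT4 value far above the others, and the stomatal lineage list is above 0 at every time.

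Markers of tissues were compared because whole seedlings mix them. All 8 stomatal lineage genes had a log2 difference above 0, against 52% of all genes, with a median of 0.27. None was called, beside 0.0856% of all genes, and at ZT4 alone 5 of the 8 were above 0. MUTE, which ends the asymmetric divisions of stomatal precursors, was at 1.69, 2.67, 2.99 and 1.67 TPM in Col-0 and at 2.80, 3.84, 3.79 and 3.70 TPM in pif7, higher at each time (0.48 ± 0.12, adjusted p = 0.294, limma). The summed level of the list was 114 to 137 TPM in Col-0 and 126 to 162 TPM in pif7. Without ZT20 the list median was 0.17, and in the warm hours it was 0.22. In the constant regime it was 0.03 over the 4 times and 0.34 at ZT20 alone. Root markers (15 of 17 tested) had a median of -0.01 and summed levels of 114 to 210 TPM in Col-0 and 111 to 194 TPM in pif7. Seed storage markers (5 of 12 tested) summed to 11.9 to 21.3 and 11.2 to 23.9 TPM, with a median of 0.59 at ZT4 alone and CRU2 listed at 0 in all 8 libraries. The 5 shoot photosynthesis markers summed to 17300 to 23700 TPM in Col-0 and 17200 to 19900 TPM in pif7. The part of tissue makeup in the results above was not tested.

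More genes lay beyond 1 log2 unit at a single hour than lay beyond it the same way at all 4 cool hours. The single-hour counts are out of 21031 genes, rest on 1 library of each genotype and were not tested. At ZT0, 72 genes were more than 1 log2 unit higher in pif7 and 155 lower, at ZT4 231 higher and 58 lower, at ZT16 84 and 52, and at ZT20 64 and 157. In the constant regime the direction also changed between hours, with 259 higher and 62 lower at ZT0 and 38 and 191 at ZT16. Beyond 1 log2 unit the same way at all 4 cool hours were 8 genes, 0.038% of those tested. These were MRD1, QQS, HEI10 and AT3G29120 on the higher side and AT5G44440, AT2G05995, AT4G03990 and SADHU3-2 on the lower side.

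The cool hours were also set against the warm hours of the same regime. No gene passed the test of that difference in limma's fit, and 355 (1.69%) had an unadjusted p under 0.05. With the smallest p were GASA5, a gibberellin-regulated peptide gene, at 0.77 in the cool and -0.54 in the warm hours (difference 1.31 ± 0.25), and PRE1, a growth-promoting helix-loop-helix protein, at -0.08 and -1.16 (difference 1.09 ± 0.22), both at an adjusted p of 1. Genes just short of the threshold in the cool hours were MYB88, a stomatal division factor, at -0.44 ± 0.08 (adjusted p = 0.0615, limma), and AT2G33850, at 0.72 ± 0.13 (adjusted p = 0.0684). MYB88 passed under 5 of 12 alternatives, which were the larger pseudocount, no filter, the filter at a mean TPM of 5, quantile normalization and no variance trend, with adjusted p from 0.0362 to 0.416 over the 12. Just inside it were HFR1 at 0.0351 and AT3G50840 at 0.0255.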

How the data were processed

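Per the submitters' processing notes, HISAT2 and StringTie were used, with the TAIR10 build. Versions, options and strand setting are not given in the sources used here. Per the file headers, the deposited tables give for each gene a coverage (signal per base), an FPKM and a TPM value. The deposited TPM column was given the unit "other", because the 33602 reference genes sum to 1010427 to 1034801 per library. Coverage and FPKM served only to derive depth, and without read counts no counting interval is given.

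TPM values of reference genes were rescaled by median-ratio factors (0.878 to 1.15), and limma 3.58.1 (R 4.3.3) was run with its variance trend on log2(TPM + 1). A gene was kept if 2 or more libraries reached 1 TPM. The fit used all 28 libraries, with a term for each of 14 regime and time pairs and a genotype term for each of 4 sets of pairs, which left 10 residual degrees of freedom against 3 for the 8 libraries alone. A gene was called at a Benjamini-Hochberg adjusted p under 0.05 over all genes tested. Errors are standard errors of the fit. Replicate numbers do not pair samples here, since each condition has 1 library, and the pairs are the shared regime and time.

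The comparison and the gene lists (21 lists, 316 genes, 294 tested) were chosen with earlier results of these data known. The rule for named genes took the PIF family, then up to 12 called genes per direction with a mean TPM of at least 5 in the higher genotype and the same sign in all pairs (filled up to 10 by the smallest p), up to 3 members per list, a set of growth and cold genes, and the genes of smallest p in the tests between sets. Not all of them are described. SADHU3-2, AT4G03990, HEI10 and genes just outside the threshold or with single-time values singled out (EXPA11, LHB1B1, FT, LHY) were described after their values were seen. Symbols come from RefSeq, which matched 32835 genes. Gene coordinates are those of the files. Of 32835 genes compared with RefSeq's TAIR10.1, 32823 lay on the same chromosome and 18633 shared a start or an end. The fit was also run on simulated data with independent noise, a check of the code that says nothing about the spread between pools of seedlings. Alternatives were pseudocounts of 0.1 and 5, quantile normalization, TPM left unscaled, a filter at a mean TPM of 5, no filter, a fit without the variance trend, only the libraries of the comparison, and each time left out of both regimes. Python 3.11.15 with numpy 2.4.6, pandas 2.3.3 and matplotlib 3.10.9 gave the tables and plots.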

Additional observations from a re-analysis of the deposited data

How the results depend on the processing

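No call of a cool-hour difference changed direction under any alternative run. The calls, 18 by the settings above, numbered 14 to 21 under the other pseudocounts, filters, scalings and variance models, with gained genes counted too. The filter at a mean TPM of 5 left 13 of the 18 tested, and all 13 kept their calls. It removed HEI10, AT2G05995, SADHU3-2, AT4G03990 and AT5G44440. HFR1, AT3G50840 and EXLB1 lost their calls with no filter. HFR1 also lost its call at a pseudocount of 0.1, and AT5G44440 at a pseudocount of 5. The calls numbered 7 (4 lower) when only the libraries of the comparison were fitted, which leaves fewer residual degrees of freedom. Leaving out each time in turn gave 9 to 23 calls, with 5 to 18 lower and 4 to 5 higher, the fewest without ZT16. The 9 genes that kept their calls with each time left out were MRD1, QQS, HEI10, AT3G29120, AT2G05995, AT4G03990, SADHU3-2, WEB1 and PIF7, and the other 9 lost theirs at adjusted p of 0.0558 to 0.295. In the constant regime the 11 calls became 6 under a filter at a mean TPM of 5, and 8 to 9 with a time left out. No gene passed the test of the regime difference under any setting, and 1 passed the test against the warm hours with no filter. The causes were not tested. Among the values of named genes under alternatives, 1110 kept their side of the threshold, 38 lost a call and 3 gained one. Of the 99 genes counted, only the 18 called ones could lose a call, so the 1110 mostly reflect genes that were not called. No gene changed sign where it was called. Some uncalled genes did, such as PIL6, which was at 0.14 and reached -0.06. The median of the auxin response and transport list ran from -0.33 to -0.08, and that of the stomatal lineage list from 0.17 to 0.34. With 1 library per condition, differences at a single hour cannot be told apart from the spread between pools of seedlings.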

Other observations

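Genes outside the lists that did not pass over 4 times and passed when ZT4 was left out included EXP3, an expansin, at a log2 difference of -0.78 (adjusted p = 0.0137, limma) against -0.59 over 4 times (adjusted p = 0.107), AT5G48900, at -0.93 (0.0312) against -0.76 (0.0761), and LUP1, a triterpene synthase, at -1.23 (0.0285) against -1 (0.0761). The antenna gene LHCB2.3 passed without ZT4 on the higher side, at 0.57 (adjusted p = 0.0175). LUP1 also passed over 4 times under quantile normalization (adjusted p = 0.0487), and the other 3 passed under no other alternative that was run. These genes were picked after their values were seen.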
